A study of Mus musculus with 24 samples.

Results

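Of 10 regulators of the heart muscle programme, 9 were read by at least 1 probe on the arrays: Gata4, Gata6, Nkx2-5, Mef2c, Mef2d, Tbx5, Tbx20, Hand2 and Vgll2. The genes were chosen by name, with earlier results of these data known. The shares of all genes given beside their calls below are thus descriptions. Every probe that the platform annotation ties to 1 of these symbols was taken, which gave 20 of 45281 probes. No probe carried the symbol Mef2a, so that gene was not analysed here. Whole hearts of female FVB/N mice were compared on 24 expression arrays, 1 mouse to an array. At 3 weeks of age there were 3 mice of the mild line, 3 mice of the severe line and 4 wild type mice. At 24 weeks there were 5 mice of the mild line, 5 mice of the severe line and 4 wild type mice. The mild line (MHC-CELFΔ-574) and the severe line (MHC-CELFΔ-10) carry the same hemizygous transgene, a nuclear dominant negative CELF protein made in postnatal heart muscle from the α-myosin heavy chain promoter, at a lower and a higher level. Each level is represented by 1 line, so the level of the transgene and the site where it sits in the genome cannot be told apart. The wild type mice were littermates, 2 from each line at each age, and both lines were set against the same 4 mice.

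GATA4 and GATA6 are zinc finger factors, NKX2-5 a homeodomain factor, MEF2C and MEF2D MADS-box factors, TBX5 and TBX20 T-box factors, and HAND2 a basic helix-loop-helix factor. They bind side by side at enhancers of cardiac genes, specify heart muscle in the embryo and keep contractile and ion channel genes active after birth. VGLL2 (vestigial-like family member 2) binds no DNA itself. It is a cofactor of the TEAD factors, best known from skeletal muscle, where in mice it takes part in setting the slow fibre programme.

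Separate probes, 3 in all, read Vgll2, a gene on chromosome 10, and they did not give the same result, so the first 30 of the 50 bases of each are shown, 5′ to 3′ as the probe is written, all in lower case because no stretch stands out.
ILMN_2909248: accacctccctctaccccccaggaccatgt
ILMN_2495753: acgggtagatgtctttaggaagtagcaccc
ILMN_2429680: tctggccgccgcacactcggagctgccctt
The share of G and C over the 50 bases was 60% in the first, 58% in the second and 68% in the third. Which exon each probe reads was not settled here.

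Vgll2 was the gene of the 9 that differed most from wild type, and it was called only in the mature hearts. Values are quantile-normalized log2 intensities, on which 1 unit is a 2-fold difference, and a probe was taken as detected on an array where its detection p-value against the negative control beads was under 0.05. The probe that stands for the gene, ILMN_2909248, was the brightest of the 3 by mean over all 24 arrays. That mean includes the high 24-week transgenic hearts, and in each 3-week group ILMN_2429680 was brighter (6.73 against 6.60 in wild type). At 24 weeks ILMN_2909248 read 8.33, 8.47, 8.00, 7.94 and 8.05 in the mild line and 8.67, 8.52, 8.81, 8.38 and 8.16 in the severe line, against 7.34, 7.16, 6.85 and 6.66 in wild type. Every transgenic heart of this age lay above every wild type heart, and the probe was detected in all 10 of the transgenic hearts and in 3 of the 4 wild type hearts. At 3 weeks it read 6.76, 6.63 and 6.66 in the mild line and 6.82, 6.49 and 6.81 in the severe line, against 6.69, 6.63, 6.56 and 6.53 in wild type. These juvenile groups overlapped, and the probe was detected in only 1, 2 and 1 of their hearts.

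**Figure D1:**
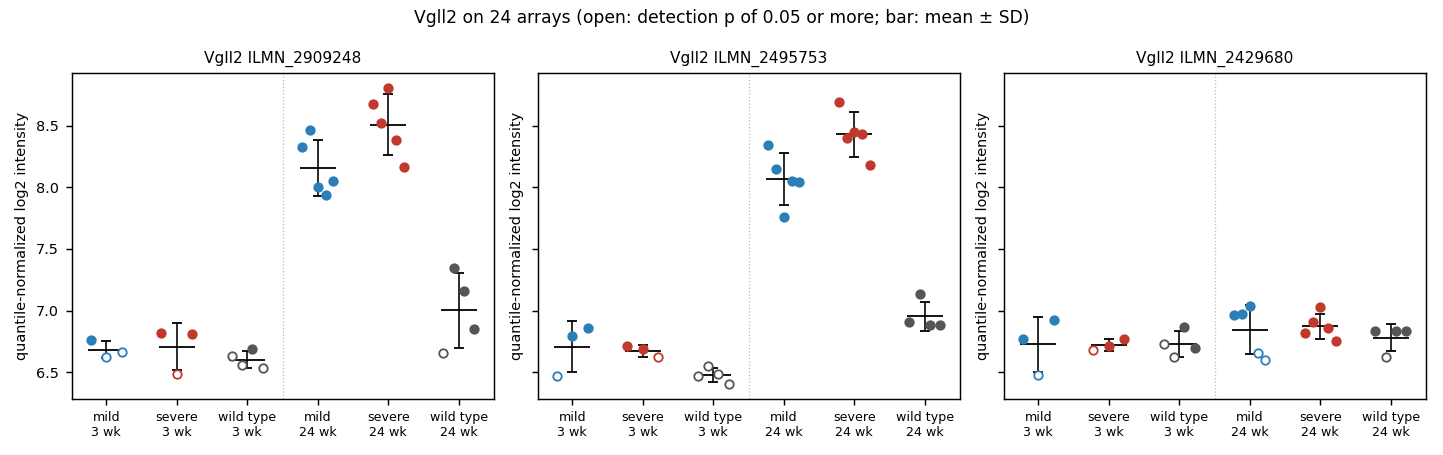
Quantile-normalized log2 intensity (vertical axis) of the 3 Vgll2 probes in each heart, by group, with filled points where the probe was detected and open points where it was not, and bars for the mean and SD. With the first 2 probes the 24-week mild hearts (7.76 or more) and severe hearts (8.16 or more) stand above the wild type hearts (7.34 or less), while the third probe stays between 6.48 and 7.04 in all 24 hearts.

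In the fit across all 12011 genes (limma, moderated tests with Benjamini-Hochberg adjustment), Vgll2 rose at 24 weeks by 1.15 in the mild line (SE 0.137, adjusted p = 1.3e-05), with a mean of 8.16 ± 0.23 (SD, n = 5), against 7.00 ± 0.31 in wild type (n = 4), a 2.23-fold difference (95% interval 1.83 to 2.71). It rose by 1.51 in the severe line (SE 0.137, adjusted p = 7.6e-08), with a mean of 8.51 ± 0.25 (n = 5), which is 2.84-fold (2.33 to 3.46). A gene was called at an adjusted p under 0.05. Of the 9 genes fitted, Vgll2 was the 1 called in mature mild hearts, where 0.966% of all genes were called, and 1 of 2 called in mature severe hearts, where 15.6% were called. Only Vgll2 was also 2-fold or more different, which 0.208% of all genes were in the mild line and 1.57% in the severe line. At 3 weeks the differences were 0.08 in the mild line (95% interval -0.24 to 0.40, adjusted p = 0.95) and 0.10 in the severe line (-0.22 to 0.43, adjusted p = 0.82). No member was called at 3 weeks in either line, against 2.33% of all genes in the mild line and 4.62% in the severe line, and none had an unadjusted p under 0.05 there. Because the tissue was whole heart, fewer cells of a type and less RNA per cell cannot be told apart in any of these values.

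The difference from wild type itself grew with age. In the severe line it was larger at 24 than at 3 weeks by 1.40 (SE 0.207, adjusted p = 7.1e-04), and Vgll2 was the 1 member called in that test, against 0.683% of all genes. In the mild line it was larger by 1.07 (SE 0.207, adjusted p = 0.047), again the 1 member called, against 0.0666% of all genes. The mild line's call is close to the threshold and was lost in most of the leave-one-out fits, where its adjusted p reached 0.14, with sizes of 0.96 to 1.19. Over all 39 alternatives the mild line's change ranged from 0.68 to 1.79 and was called in 16. Within lines, the 24-week level exceeded the 3-week level by 1.80 in the severe line (SE 0.149, adjusted p = 5.1e-08) and by 1.47 in the mild line (SE 0.149, adjusted p = 1.1e-06). Since the 3-week level lay at background, the size of these differences is uncertain, and over the alternatives it ranged from 1.24 to 3.08 in severe hearts and from 0.99 to 2.72 in mild hearts, with neqc giving the highest of each. In wild type hearts it was 0.40 higher at 24 weeks (SE 0.144, adjusted p = 0.18), where no member was called and 2.57% of all genes were. Ordered by mean, the groups ran from wild type at 3 weeks (6.60), the mild line (6.68) and the severe line (6.71) at 3 weeks, through wild type at 24 weeks (7.00), to the mild line (8.16) and the severe line (8.51) at 24 weeks, and of the neighbours in this order, only the mild line and wild type at 24 weeks differed by a call (the severe line at 3 weeks was not set against wild type at 24 weeks). At 24 weeks the severe line exceeded the mild line by 0.35 (95% interval 0.08 to 0.62, adjusted p = 0.084), where no member was called and 11.3% of all genes were. With runs of 6 consecutive arrays as a block this difference was called (adjusted p = 0.046).

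The second probe, ILMN_2495753, gave the same picture. At 24 weeks it read 8.35, 8.15, 7.76, 8.05 and 8.04 in the mild line and 8.69, 8.40, 8.45, 8.43 and 8.18 in the severe line, against 7.13, 6.91, 6.88 and 6.88 in wild type. In the fit of every kept probe on its own (18907 probes) its differences were 1.12 in the mild line (SE 0.104, adjusted p = 6.9e-07, 0.73% of all probes called) and 1.48 in the severe line (SE 0.104, adjusted p = 2.3e-09, 12.4% called). At 3 weeks they were 0.23 and 0.20 and not called, where 1.71% and 3.49% of all probes were. With this probe the severe line also exceeded the mild line at 24 weeks, by 0.36 (SE 0.098, adjusted p = 0.022), in a comparison that called 8.48% of all probes. It was detected in none of the 4 wild type hearts at 3 weeks and in all 4 at 24 weeks. The measured wild type means were 6.95 at 24 weeks and 6.48 at 3 weeks (adjusted p = 0.023, 1.93% of all probes called), and with the 3-week side held at the lowest detected signal of each array the wild type level at 24 weeks was at least 1.19-fold higher. The 3-week side of this probe is thus a bound in wild type, and its growth of the difference with age (1.28 in the severe line, adjusted p = 1.6e-04, 0.397% of all probes called, and 0.89 in the mild line, adjusted p = 0.024, 0.0476% called) includes values at background.

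The third probe, ILMN_2429680, showed no such difference. Its 24-week means were 6.85 ± 0.20 in the mild line, 6.87 ± 0.10 in the severe line and 6.78 ± 0.11 in wild type, and it was called against wild type in neither line at either age. It was detected in 17 of the 24 hearts, and its highest reading was 7.04. Over the 24 arrays its values followed those of ILMN_2909248 with a Pearson r of 0.48, against 0.98 for ILMN_2495753, as a description over arrays that share their groups. No 2 of the 3 probes share a run of more than 7 bases.

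Skeletal muscle also expresses Vgll2, so its markers are given beside it. Of 10 such markers, Myh1 and Myod1 were detected on none of the 24 arrays, Myh4 on 1 and Actn3 on 2, Myh2 had no probe under that symbol, and 5 were fitted. At 24 weeks none of the 5 was called in the mild line and 1 was in the severe line (Tnnt3, fast troponin T, 0.31 higher, adjusted p = 0.030). The log2 of their summed level lay between 9.01 and 9.26 in mild hearts and between 9.00 and 9.29 in severe hearts, against 9.15 to 9.31 in wild type. At this age the group means of Atp2a1, Mylpf, Myog and Tnnt3 were only 6.49 to 6.95. The lowest detected signal of the arrays was 6.62 to 6.82, so these sums hold much background and the Tnnt3 call lies near the floor. At 3 weeks, when Vgll2 was low, the sum was 9.55 to 9.81 in mild hearts and 9.28 to 10.04 in severe hearts, against 9.72 to 9.87 in wild type.

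The arrays numbered 1 to 12 had a higher floor of raw intensity (54.2 to 62.8) than those numbered 13 to 24 (38.9 to 47.2), and each set held all 6 groups. Within arrays 1 to 12 Vgll2 was 1.40 higher in the mild line and 1.60 higher in the severe line at 24 weeks. Within arrays 13 to 24 it was 0.99 higher in the mild line (adjusted p = 0.11, not called) and 1.44 higher in the severe line (called). The deposited values keep the background glow of the array, which shrinks differences of dim probes. After background correction with the detection p-values (neqc) the 24-week differences were 1.98 in the mild line and 2.43 in the severe line.

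Of the genes outside the list, Myh7, Cela1 and Slc13a4 had the Vgll2 pattern most alike over the 24 arrays, with a Pearson r of 0.93, 0.93 and 0.90. After the group means were taken out, r was 0.23, 0.55 and 0.43, so most of the likeness to Myh7 lay in the step between groups. Myh7, the slow β-myosin heavy chain, rose at 24 weeks by 1.36 in the mild line (adjusted p = 0.0010) and by 1.68 in the severe line (adjusted p = 1.1e-05). At 3 weeks it was 0.04 higher in the mild line (adjusted p = 0.99) and 0.40 higher in the severe line (adjusted p = 0.49). These are array values. The paper's real-time RT-PCR saw no rise of Myh7 at 24 weeks in either line, and a mild reduction in the severe line. The severe heart with the highest Myh7 at 24 weeks (10.95) had the lowest Vgll2 of its group (8.16).

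**Figure D2:**
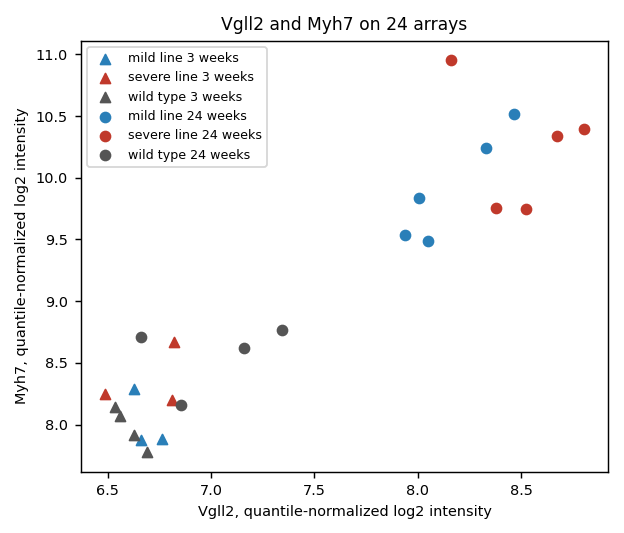
Quantile-normalized log2 intensity of Vgll2 (horizontal axis) and Myh7 (vertical axis) in each of the 24 hearts, with triangles for 3 weeks, circles for 24 weeks and colours for the lines. The 24-week transgenic hearts, with Vgll2 at 7.94 or more and Myh7 at 9.49 or more, lie apart from the 14 other hearts, in which Myh7 was at most 8.76.

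Gata6 was the other member called against wild type. Its brighter probe, ILMN_2868133, read 10.12, 10.18, 9.94, 9.97 and 10.38 in the severe line at 24 weeks, against 10.69, 10.62, 10.51 and 10.41 in wild type. All severe hearts lay below all wild type hearts, by a margin of 0.03 between the nearest ones. The mean of 10.12 ± 0.18 in the severe line (n = 5), against 10.56 ± 0.12 in wild type (n = 4), gave a fall by 0.44 (SE 0.092, adjusted p = 0.0016), a level 1.36-fold lower (95% interval 1.19 to 1.55). Mild hearts of this age read 10.30, 10.26, 10.21, 10.19 and 10.14, also below every wild type heart, with a difference of -0.34 (SE 0.092, adjusted p = 0.10) that was not called. At 3 weeks the groups overlapped, with differences of -0.05 in the mild line and -0.09 in the severe line. The growth of the difference with age was -0.29 in the mild line (unadjusted p = 0.048) and -0.35 in the severe line (unadjusted p = 0.019), neither called after adjustment. With age itself Gata6 was lower by 0.33 in the severe line (-0.33, adjusted p = 0.052) and by 0.26 in the mild line (-0.26, adjusted p = 0.15), and it differed by 0.03 in wild type. The severe line's call at 24 weeks was lost with raw intensities scaled to a common median (-0.31, adjusted p = 0.38) and within arrays 13 to 24 (-0.42, adjusted p = 0.17), and held within arrays 1 to 12 (-0.45, adjusted p = 0.038).

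The dimmer Gata6 probe, ILMN_1255968, was detected on all 24 arrays and was called against wild type in neither line at either age. At 24 weeks it averaged 7.25 ± 0.08 in the mild line and 7.23 ± 0.20 in the severe line, against 7.38 ± 0.13 in wild type. Its values followed those of the brighter probe with a Pearson r of 0.49 over the arrays, and 0.12 after the group means were taken out. No sequence is shown for Gata6. Fyco1, Acss1 and Tnik had the pattern most like that of the brighter probe, with r of 0.86, 0.82 and 0.80 (0.68, 0.59 and 0.34 without the group means), and were lower in the severe line at 24 weeks by 0.72, 0.89 and 0.52.

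**Figure D3:**
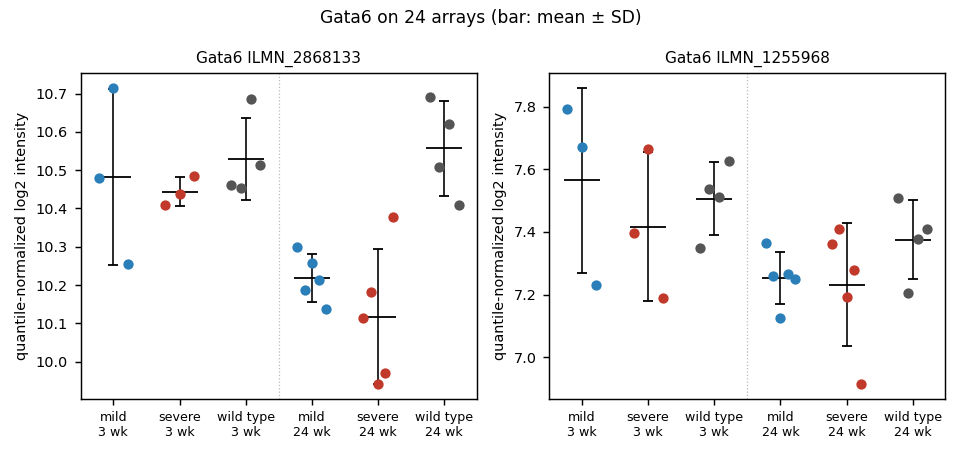
Quantile-normalized log2 intensity (vertical axis, scaled to each probe) of the 2 Gata6 probes in each heart, by group, with bars for the mean and SD. With the brighter probe the 24-week mild hearts (10.14 to 10.30) and severe hearts (9.94 to 10.38) lie below the wild type hearts (10.41 to 10.69), while the dimmer probe's groups overlap.

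Some markers of other cells rose in the same severe hearts in which Gata6 was lower. Of 7 fibroblast markers, 5 were higher in the severe line at 24 weeks (of all genes, 8.26% were called higher there). The log2 of the sum of all 7 was 13.81 to 14.34, against 13.45 to 13.72 in wild type. The fibroblast sum was carried mostly by Dcn (mean 13.82 in these severe hearts, against 9.80 for Pdgfra, the next highest). Of 3 smooth muscle markers fitted, 2 were higher, Acta2 and Tagln, while Myh11 differed by 0.07 (adjusted p = 0.82). Their sums were 13.53 to 14.78, against 12.47 to 13.11 in wild type. These sums were carried mostly by Acta2 (mean 14.23 in these severe hearts, against 7.49 for Tagln and 7.74 for Myh11). At 3 weeks, where Gata6 was not called, 1 marker of each of these lists was higher in the severe line, with fibroblast sums of 13.98 to 14.26, against 13.64 to 13.97 in wild type. None of the 6 cardiomyocyte markers fitted was called, and their sums lay between 16.59 and 16.79 in the severe line, against 16.53 to 16.67 in wild type. No marker of these 3 lists was called in mild hearts of 24 weeks. Of the rest, 1 of 4 macrophage and 1 of 5 endothelial markers were higher in mature severe hearts, none of 3 thymus markers was called, and the single lung marker fitted, Scgb1a1, varied too widely between mice for a call (SE 1.28). The part of these cells in the Gata6 and Vgll2 values was not tested.

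Nkx2-5, the homeodomain factor, was not called against wild type at either age, and its largest differences lay elsewhere. At 3 weeks it read 8.58, 8.48 and 8.62 in the severe line, against 8.78, 8.90 and 9.24 in the mild line, without overlap. The difference between the lines was -0.42 (SE 0.118, unadjusted p = 0.0018, adjusted p = 0.16), where no member was called and 0.574% of all genes were. Wild type hearts of that age lay between, at 8.65 to 8.92, 0.20 below the mild line and 0.22 above the severe line. At 24 weeks the severe line read 8.86, 8.98, 9.08, 8.90 and 8.87, all above its 3-week hearts, and this rise with age by 0.38 was called (SE 0.106, adjusted p = 0.031). It and Vgll2 were the 2 members called in that comparison, against 6.89% of all genes, while with age in the mild line Vgll2 was the 1 member called, against 5.1%. Of these 2, only Vgll2 met the 2-fold rule, as 0.633% of all genes did. The Nkx2-5 call is near the threshold and was lost in 5 of the fits that left out 1 array, each of the 3 severe hearts of 3 weeks and replicates 2 and 3 of 24 weeks, with adjusted p up to 0.14. In wild type hearts Nkx2-5 changed by 0.03 with age (adjusted p = 0.95). At 24 weeks the lines' differences from wild type were 0.07 in the mild line (95% interval -0.13 to 0.27) and 0.13 in the severe line (-0.07 to 0.33).

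**Figure D4:**
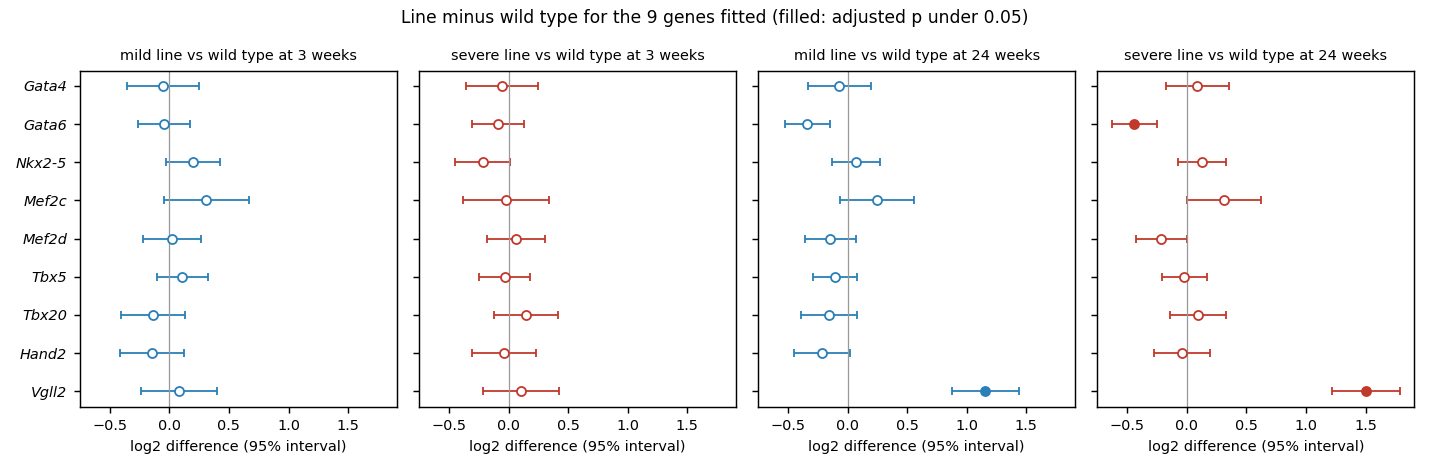
Difference in quantile-normalized log2 intensity from wild type (horizontal axis, with 95% intervals) for the 9 genes fitted, in the mild and the severe line at each age, with filled points for calls at an adjusted p under 0.05. The called points are Vgll2 in both lines and Gata6 in the severe line at 24 weeks, and every interval at 3 weeks includes 0.

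The MEF2 factors gave no call. Mef2c was read by 5 probes, of which 4 were detected and 1 was detected on none of the arrays. The brightest, ILMN_2732465, read 10.54, 10.51, 10.60, 10.35 and 9.84 in the severe line at 24 weeks, against 10.39, 10.21, 9.93 and 9.69 in wild type. Severe hearts other than replicate 5 lay at 10.35 or above and replicate 5 near the lower end of wild type, so the groups overlapped and the difference of 0.31 (SE 0.152, adjusted p = 0.20) was not called. Without that heart it was 0.44 (adjusted p = 0.023), with arrays weighted by their quality 0.42 (adjusted p = 0.038), and with runs of 6 arrays as a block 0.37 (adjusted p = 0.030). The same heart stood apart with ILMN_1214950, at 7.61, against 8.57 to 9.55 in the 23 other hearts, and with ILMN_2887992, at 8.86, against 9.32 to 9.39 in the rest of its group. It was also the array with the largest share of probes detected, 44.4%, against 32.0% to 43.4% on the others, and the part of that in its Mef2c values was not tested. In mild hearts Mef2c was 0.31 higher at 3 weeks (95% interval -0.05 to 0.67) and 0.25 higher at 24 weeks (-0.07 to 0.56).

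**Figure D5:**
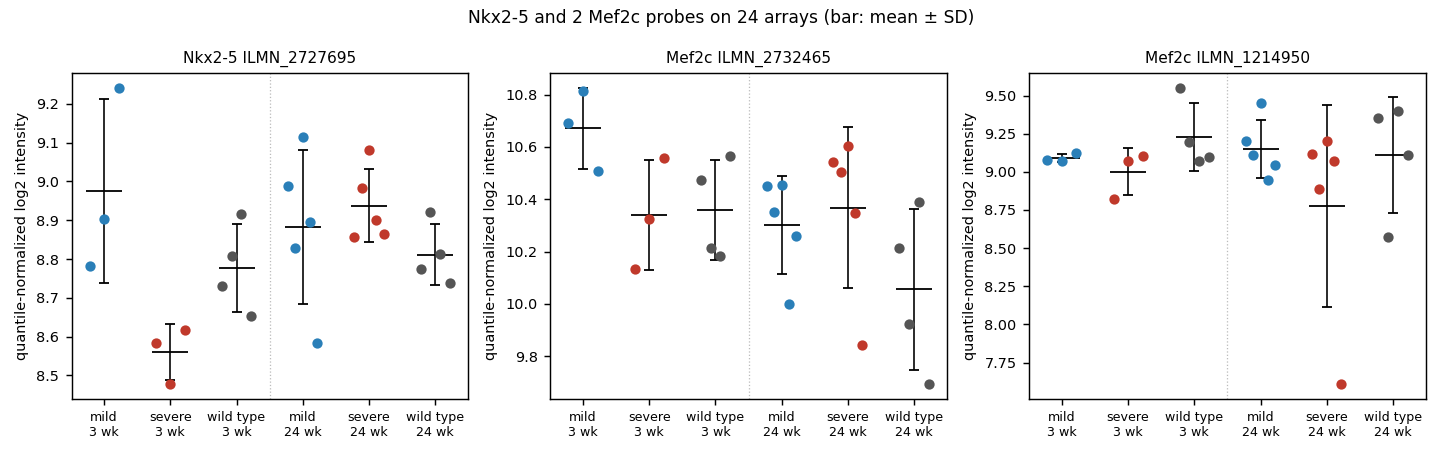
Quantile-normalized log2 intensity (vertical axis, scaled to each probe) of Nkx2-5 and of 2 Mef2c probes in each heart, by group, with bars for the mean and SD. The 3 severe hearts of 3 weeks (8.48 to 8.62) carry the lowest Nkx2-5 apart from 1 mild heart of 24 weeks at 8.58, and with Mef2c probe ILMN_1214950 severe replicate 5 lies at 7.61, below the 23 other hearts.

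Of the Mef2c probes, ILMN_1220270 did not follow the brightest. Against ILMN_2732465 over the arrays, r was 0.91 for ILMN_2887992 (0.92 after the group means were taken out), 0.49 for ILMN_1214950 (0.73) and 0.00 for ILMN_1220270 (-0.05). In mild hearts of 3 weeks ILMN_2887992 was 0.46 higher than wild type (unadjusted p = 0.0049) and ILMN_1220270 0.32 lower (-0.32, unadjusted p = 0.010), and neither was called after adjustment over all probes. The starts of these 2 probes, which read opposite ways, are shown in lower case, 5′ to 3′, 30 of 50 bases each.
ILMN_2887992: ggtttggacagacccggcaagtggtgacta
ILMN_1220270: agcacagctaatgacaagtgcagctgatgg
Mef2d was near background, detected on 7 of the 24 arrays, and at 24 weeks its differences from wild type were -0.15 in mild hearts (adjusted p = 0.87) and -0.21 in severe hearts (adjusted p = 0.19).

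The T-box factors also gave no call. The brightest Tbx20 probe, ILMN_2601336, read between 7.03 and 7.99 over the 24 hearts, and its differences from wild type were -0.14 and 0.15 at 3 weeks and -0.15 and 0.10 at 24 weeks in the mild and the severe line. With this probe the severe line exceeded the mild line by 0.28 at 3 weeks and 0.25 at 24 weeks (unadjusted p = 0.051 and 0.029, adjusted p = 0.75 and 0.15). A second detected probe, ILMN_1224706, put both lines above wild type at 3 weeks, by 0.29 in mild hearts (adjusted p = 0.48) and 0.39 in severe hearts (adjusted p = 0.15), and at 24 weeks gave -0.05 in mild hearts and 0.26 in severe hearts (adjusted p = 0.20 for the severe). The other 2 Tbx20 probes were detected on 4 and on none of the arrays. Tbx5, which in people is mutated in Holt-Oram syndrome, was detected on 11 arrays with 1 probe and on 1 array with the other, and its differences from wild type lay between -0.10 and 0.11.

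Gata4 and Hand2 were not called. The single Gata4 probe was detected on 19 arrays, and its 4 differences lay between -0.07 and 0.09, with 95% intervals no wider than -0.36 to 0.35. Hand2, read by 1 probe detected on 23 arrays, differed by -0.15 in the mild line and -0.04 in the severe line at 3 weeks, and by -0.22 (95% interval -0.45 to 0.02) and -0.04 at 24 weeks. Both probes were dim, with means of 6.79 for Gata4 and 7.02 for Hand2 over the 24 arrays, so background shrinks their differences and a change of the size seen for Gata6 may not have been detectable. Over all 9 members the median difference in the severe line at 24 weeks was 0.09, and 0.00 over all genes. The median size of a member's difference there, without its sign, was 0.13, against 0.12 over all genes. At an unadjusted p under 0.05, 2 members passed in the mild line at 24 weeks (7.85% of all genes did) and 2 in the severe line (25.9%), and none passed at 3 weeks (11.2% and 16.4%). Between the lines 1 passed at 3 weeks (6.63%) and 2 at 24 weeks (23.8%). With age 3 passed in the mild line (16.6%), 3 in the severe line (18.9%) and 1 in wild type (12.8%), and for the change of the difference 2 passed in the mild line (4.25%) and 3 in the severe line (8.34%).

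Of 28 further GATA, T-box, HAND, NK2, MEF2, Iroquois and related factors, 20 were fitted. In the severe line at 24 weeks 4 were called, against 15.6% of all genes. Of these 2 were higher, Meox1 by 1.23 (a homeobox factor of the somites, adjusted p = 6.9e-04) and Tcf21 by 0.45 (a factor of epicardium and fibroblasts, adjusted p = 0.039, also 1 of the fibroblast markers), and 2 were lower, Tbx3 by 0.42 (-0.42, a T-box repressor of the conduction system) and Irx2 by 0.38 (-0.38, an Iroquois factor). At 3 weeks Meox1 was 1.36 higher in the severe line, and no gene of the list was called in mild hearts of either age. Of 25 cofactors and regulators fitted, 4 were higher and 2 lower in the severe line at 24 weeks, against 8.26% and 7.32% of all genes. The larger ones were Pdlim7 (0.66, a LIM protein that binds TBX5), Myocd (-0.54, the SRF coactivator myocardin), Lmo4 (0.42, a LIM-only adaptor) and Trps1 (0.42, a GATA-type repressor). At 3 weeks 3 were higher in severe hearts, against 4.62% of all genes called, Pdlim7 by 0.64, Lmo4 by 0.36 and Camk4 (a calcium-dependent kinase) by 0.33. The 1 call in mild hearts was Nfatc2 at 3 weeks (0.41).

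Of 13 genes of the VGLL, TEAD and YAP group fitted, Vgll2 not among them, none was called in the mild line at 24 weeks, against 0.966% of all genes, and 2 were in the severe line, against 15.6%. These were Ccn2 (connective tissue growth factor, a YAP and TEAD target), higher by 1.89 (adjusted p = 1.2e-06), and Yap1, higher by 0.44 (adjusted p = 0.0043). Ccn2 was already higher at 3 weeks, by 1.66 in the mild line and 2.18 in the severe line, and in mild hearts of 24 weeks it was 0.50 higher without a call, an order in time unlike that of Vgll2. Tead1, the main TEAD factor of heart muscle, differed by -0.01 in the mild line and 0.22 in the severe line at 24 weeks, and the relatives Vgll3 and Vgll4 by -0.07 and 0.16 in the mild line and 0.21 and 0.25 in the severe line. Between the lines at 24 weeks 3 of the 13 were higher in the severe line, Ccn2 by 1.39, Ccn1 (a matricellular relative of Ccn2) by 1.17 and Yap1 by 0.35, against 11.3% of all genes called. From 3 to 24 weeks Ankrd1, a cardiac ankyrin repeat protein and YAP target, rose in both lines, by 1.07 in the mild line (adjusted p = 0.023) and 0.98 in the severe line (adjusted p = 0.034), and was 0.68 higher in wild type without a call (adjusted p = 0.25). Tead2, a TEAD factor, fell with age by 0.43 in the mild line and by 0.49 in the severe line (-0.30 in wild type, not called). None of these 13 genes was called in the test of whether the gap to wild type grew or shrank between the ages.

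Among 26 fitted genes described as cardiac targets of these factors, 3 were higher and 3 lower in the mild line at 24 weeks, where 0.966% of all genes were called. In the severe line 5 were higher and 7 lower, where 8.26% of all genes were called higher and 7.32% lower. The largest in the severe line were Hopx (-1.84, an atypical homeodomain protein that restrains SRF), Nppb (1.74, brain natriuretic peptide), Acta1 (1.70, skeletal α-actin) and Myh7 (1.68). Mild hearts of 24 weeks differed in the same 4 genes by -2.12, 0.97, 1.66 and 1.36. For Myh7, the paper's real-time RT-PCR saw no such rise in either line, and in the severe line a mild reduction. At 3 weeks 2 were higher and 5 lower in the mild line (2.33% of all genes called), and 3 higher and 1 lower in the severe line (4.62% called). Among them were Hopx at -2.63 in the mild line and Nppb at 1.58 in the mild and 1.78 in the severe line. The median over the list lay between -0.13 and -0.04 in these 4 comparisons, and within 0.01 of 0 over all genes. Of 4 atrial muscle markers, Sln fell in the mild line at both ages (-1.95 at 3 weeks, -1.18 at 24 weeks). Myl7 fell in the mild line at 3 weeks (-1.58) and in mature severe hearts (-1.35). The other markers, Myl4 and Nppa, were called against wild type in neither line at either age. At 3 and 24 weeks Myl4 differed by -0.38 and -0.33 in the mild line and by 0.09 and 0.14 in the severe line. Nppa differed by -0.02 and 0.07 in the mild line and by 0.15 and 0.01 in the severe line. The part of atrial tissue in the target values was not tested.

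RefSeq promoter windows (GRCm38.p6, 250 bases before to 50 after a gene's start) were found for 7 of the 10 genes, 9 windows in all, and both strands were searched for 5 short motifs. The window of Vgll2, on the plus strand at chr10:52022252-52022551, held none of them, which says only that these letters do not occur there. The TEAD motif CATTCC, found in 14.7% of all 32851 windows, occurred in 1 of the 3 Mef2c windows and, among the genes most like Vgll2, in 1 of the 2 Myh7 windows and in that of Slc13a4. The GATA motif AGATAA (11.2% of windows) and the E-box CATCTG (17.2%) both occurred in the Hand2 window, the E-box also in 1 Mef2c window, and the T-box motif AGGTGT (13.7%) in another Mef2c window. The NKX2-5 motif TNAAGTG (11.5%) occurred in no window of the 7 genes. Of the genes most like Vgll2, Myh7 held the NKX2-5 motif in the same window as the TEAD motif, and Slc13a4 held the E-box. The Cela1 window held the NKX2-5 and GATA motifs and no TEAD motif. None of the motifs contains another, and a match is a description of the letters, not a bound site.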

How the data were processed

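Each heart was hybridised to 1 MouseWG-6 v2.0 BeadChip array (Illumina). The authors deposited raw bead intensity, a quantile-normalized log2 value and a detection p-value per probe, and which software normalized them was not stated there. The log2 values equal those of the deposited value table. A probe was kept when its detection p-value was under 0.05 on at least 3 arrays. The brightest kept probe, by mean over all 24 arrays, stood for a gene, which gave 12011 genes with 1 symbol per probe. All 24 arrays were fitted in 6 groups with limma 3.58.1 in R 4.3.3 (lmFit, contrasts.fit, eBayes), p-values were adjusted over all genes (Benjamini-Hochberg), and an adjusted p under 0.05 was called. The authors' 2-fold rule was an alternative. The fit was tested on simulated data. Genes and lists were chosen with earlier results of these data known, and comparisons of age within a line after their values were seen. Named genes were all members, up to 4 called genes a list and the 3 genes most like each member called against wild type. Tead1, Tead2, Vgll3, Vgll4, Ankrd1, Ccn1, Camk4, Tnnt3, Scgb1a1, Sln, Myl7, Myl4, Nppa and Myh11 were added after their values were seen. Probe sequences were decoded from the deposited identifiers. The number of arrays limits precision. 48 further columns per sample were not used.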

Additional observations from a re-analysis of the deposited data

Results flagged for a closer look

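Of 68 groups of 4 or 5 hearts examined over the 17 kept probes, 6 held a heart whose gap to its neighbour was large for the range of its group, while chance gives about 1 in 20. In 2 of them the heart was severe line replicate 5 at 24 weeks, with Mef2c at 7.61 on ILMN_1214950 (the rest of the group at 8.89 to 9.20) and at 8.86 on ILMN_2887992 (9.32 to 9.39). Severe line replicate 1 at 24 weeks read Tbx5 at 6.45 on ILMN_2664533, below detection, where the rest read 6.71 to 6.79. Wild type replicate 2 of the severe line at 3 weeks read Tbx20 at 7.81 on ILMN_2601336, above 7.50 to 7.54. Wild type replicate 2 of the mild line at 24 weeks stood apart on 2 Vgll2 probes in opposite directions, at 7.13 on ILMN_2495753 (the rest at 6.88 to 6.91) and at 6.62 on ILMN_2429680 (6.83 to 6.84).

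A change with age of the Vgll2 difference from wild type was called in both lines by the test of the change itself. On ILMN_2909248 it was 1.07 in the mild line and 1.40 in the severe line. On ILMN_2495753 it was 0.89 in the mild line and 1.28 in the severe line. The mild line's call on ILMN_2909248 was close to the threshold (adjusted p = 0.047). It held under 16 of 39 alternatives, against 38 of 39 in the severe line. Juvenile values of both probes lay near background, so these sizes are uncertain. ILMN_2429680 was called against wild type in neither line at either age.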

How the results depend on the processing

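The rise of Vgll2 in the severe line at 24 weeks was called under all 39 alternatives (differences of 1.03 to 2.43), and in the mild line under 38 of 39 (0.78 to 1.98), the exception being arrays 13 to 24 alone (0.99, adjusted p = 0.11), where no member was called. No called difference changed sign. The alternatives include the fits that left out 1 heart each. The setting of every probe on its own took, for each gene and comparison, the probe with the smallest p. It thus does not test whether a gene's other probes share a call, and ILMN_2429680 of Vgll2 and ILMN_1255968 of Gata6 were called against wild type in neither line. The fall of Gata6 in the severe line was called under 37 of 39. Counts of members called per comparison moved as follows. In the mild line at 24 weeks (1 called) array weights and an unadjusted p under 0.05 gave 2, Gata6 being added. To the 2 called in the severe line at 24 weeks, array weights and runs of 6 arrays as a block each added Mef2c. In the severe line at 24 weeks (2 called) the 2-fold rule, raw intensities scaled to a common median and arrays 13 to 24 alone each gave 1, Vgll2. Between the lines at 24 weeks (0 called) array weights, every probe on its own, the mean of all kept probes, raw intensities, runs of 6 arrays as a block and the replicate block each gave 1, Vgll2, and an unadjusted p gave 2. Between the lines at 3 weeks (0 called) the replicate block and an unadjusted p gave 1, Nkx2-5. In wild type with age (0 called) every probe on its own, neqc and an unadjusted p gave 1, Vgll2. For the change with age of the mild difference (1 called) neqc, no filter on detection, arrays 1 to 12, arrays 13 to 24, own-line wild type mice and raw intensities each gave 0, and an unadjusted p gave 2. For that of the severe difference (1 called) arrays 13 to 24 gave 0 and an unadjusted p gave 3. For the mild line with age (1 called) array weights (adding Gata6 and Mef2c) and an unadjusted p gave 3 and arrays 13 to 24 gave 0. For the severe line with age (2 called) the 2-fold rule, neqc, arrays 1 to 12, arrays 13 to 24, the groups of the comparison alone, raw intensities and trended, robust variances each gave 1, Vgll2. To the 2 called in the severe line with age, array weights and an unadjusted p each added Gata6. The cause of these shifts was not tested. Arrays 13 to 24 hold 1 heart of each line at 3 weeks.

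Leaving out 1 heart at a time gave 1 to 2 members called in the mild line at 24 weeks, 2 to 3 in the severe line, 0 to 1 between the lines at 24 weeks, 0 to 1 for the change with age of the mild difference, 1 for that of the severe difference, 1 to 3 in the severe line with age and 1 in the mild line with age, and 0 at 3 weeks, between the lines at 3 weeks and in wild type with age. Without severe line replicate 5 of 24 weeks Gata6 was also called in the mild line (-0.34, adjusted p = 0.041), Mef2c in the severe line (0.44) and Vgll2 between the lines (0.44, adjusted p = 0.025), which was also called without mild line replicate 2 (0.43, adjusted p = 0.042). Gata6 was called with age in the severe line without that severe heart or without mild line replicate 2 or 3 of 3 weeks. Same-numbered replicates deviated together in some pairs and not in others. Over 60 pairs r was -0.32 to 0.57, with 25 of them above 0.1, and 12 of 24 arrays were closest to their own number. Whether the numbers pair hearts was not settled by these values. The replicate block above changed no other count. The detection floor limits the juvenile Vgll2 values, Mef2d and Tbx5.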
